A study of Mus musculus with 16 samples.

Results

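The E proteins and their Id inhibitors were examined in DN3 thymocytes, the CD4-CD8-CD25+CD44- T-cell progenitors at the stage where Tcrb is rearranged. The set was named by gene, without a threshold on any value, and holds 6 of the 22114 protein-coding genes counted, namely the E protein genes Tcf3, Tcf12 and Tcf4 and the Id genes Id1, Id2 and Id3. All 6 were present in both count tables and all 6 passed the filter on low counts. RNA-seq counts came from poly-A-captured RNA of sorted DN3 cells from C57BL/6 mice. One experiment compared total DN3 cells of 6-week-old mice in 3 wild-type, 2 p21-/-, 2 Lmo2Tg and 2 Lmo2Tg;p21-/- libraries. Lmo2Tg is the CD2-Lmo2 transgene, which drives the Lmo2 oncogene in T-lineage cells, and p21-/- is loss of Cdkn1a, the gene for the p21 cell-cycle inhibitor. The other experiment compared 3 GFPhi with 3 GFPlo libraries, sorted from H2B-GFP;Lmo2Tg mice which received doxycycline for 6 weeks, followed by a chase of 2 weeks. GFPhi cells have kept the histone label and so divided little, GFPlo cells have diluted it, and every cell of this experiment carried the Lmo2 transgene. The study describes 3 independent cohorts for the GFP libraries, so GFPhi and GFPlo libraries may be paired by cohort. The main fit did not use such a pairing. Cells were sorted from pooled mice, and the labels do not tie the genotype libraries to separate animals, so that p-values measure the spread between libraries.

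E proteins are basic helix-loop-helix transcription factors that bind E-box motifs in DNA as homodimers or heterodimers. Id proteins have the helix-loop-helix but lack the basic region, so an E protein paired with an Id protein cannot bind DNA. In the thymus, Tcf3 (E2A) and Tcf12 (HEB) drive Tcrb rearrangement, pre-TCR expression and T-lineage commitment, and pre-TCR signalling raises Id3. LMO2 is a LIM-domain adaptor that joins an E protein paired with TAL1 or LYL1 to LDB1 and GATA factors.

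The members lie on 6 chromosomes of mm10: Tcf3 on chromosome 10 (80409514-80433647, minus strand), Tcf12 on 9 (71842688-72111871, minus), Tcf4 on 18 (69343356-69689079, plus), Id1 on 2 (152736251-152737410, plus), Id2 on 12 (25093799-25097140, minus) and Id3 on 4 (136143497-136145755, plus). No exon of any of the 6 overlaps an exon of another gene in GENCODE M21. Counts were per gene, so splice forms of Tcf3 such as E12 and E47 were not separated. Windows of 250 bases upstream of the RefSeq start (GRCm38.p6) were available for 4 members. Id2, the member called in the most comparisons, holds 1 E-box (letters CANNTG, its own reverse complement) in this window. It reads CAGCTG, starts 196 bases before the RefSeq start and is shown here in capitals within the 89 bases of the window that lie outside annotated exons, chr12:25096254-25096342, minus strand.

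Id2 upstream window: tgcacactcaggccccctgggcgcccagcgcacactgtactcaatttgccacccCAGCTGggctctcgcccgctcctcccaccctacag

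A longer annotated Id2 transcript starts further upstream, so these bases are also part of its first intron. The Id3 window holds no CANNTG, and it lies entirely within the first exon of an annotated Id3 transcript. The Tcf3 window holds CACTTG, 54 bases before the start. Among the Tcf12 windows, 1 holds CAGCTG, as for Id2, and another holds CAAGTG. Of 32851 windows of this length, 66.2% held CANNTG and 13% held CAGCTG, so neither match is rare.

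Before the comparisons, the libraries were checked against their labels. Lmo2 was at 0.064 to 0.306 CPM (TMM-normalised counts, scaled to the library total) in the 5 genotype libraries without the transgene, and at 41.4 and 100.4 CPM in the Lmo2Tg libraries and 85.4 and 107.0 CPM in the Lmo2Tg;p21-/- libraries. Cdkn1a was at 36.5, 37.5 and 49.0 CPM in wild-type, 14.3 and 17.7 CPM in p21-/-, 32.8 and 26.3 CPM in Lmo2Tg and 4.35 and 3.50 CPM in Lmo2Tg;p21-/- libraries, so reads remained in the targeted gene but at lower levels in both knockout groups. GFPhi replicate 3 stood apart from the other GFPhi libraries on the second principal component (27.1% of variance, -52.3 against 32.4 and 34.9). In it Lmo2 reached 285.0 CPM against 53.8 and 29.5 CPM in GFPhi replicates 1 and 2, and Cdkn1a was at 6.56 CPM against 35.8 and 29.9 CPM. GFPhi against GFPlo results are therefore given with and without it. DN3 markers were summed at 5379 to 5760 CPM in wild-type and 3416 to 3885 CPM in Lmo2Tg libraries, with all 8 markers detected in every group. In bulk samples, fewer expressing cells and less RNA per cell cannot be told apart. Totals were 13864936 to 16837667 counts in the genotype libraries, where 3 counts correspond to 0.178 to 0.216 CPM, and 26861394 to 31106213 in the GFP libraries.

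In wild-type DN3 cells the E protein genes Tcf3 and Tcf12 were the most abundant members and Id1 the least. Per kilobase of exon, Tcf3 was at 83.2 ± 4.56 CPM (SD, n = 3) and Tcf12 at 39.6 ± 1.96. Id3 followed at 17.7 ± 4.65, then Id2 at 5.44 ± 1.32, Tcf4 at 2.95 ± 0.12 and Id1 at 0.445 ± 0.116. No neighbours in this order overlapped in their wild-type libraries. The order depends on the length used. With the median length of the coding transcripts in place of all exons, Tcf12 led at 273, followed by Tcf3 at 119, Tcf4 at 43.9, Id3 at 24.8, Id2 at 10.5 and Id1 at 0.493. Id1 rested on 10, 9 and 6 counts in the 3 wild-type libraries. Id4, the remaining Id family gene, had at most 2 counts in any library and was not tested.

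Lmo2Tg DN3 cells differed from wild-type in the Id genes more than in the E protein genes. Id1 and Id2 rose, Id3 and Tcf4 fell, and the main thymic E proteins Tcf3 and Tcf12 did not pass the test. Of the 6 members, 4 were called at an adjusted p under 0.05 (edgeR quasi-likelihood test, Benjamini-Hochberg over 11840 genes), where 36.6% of all genes tested were called in this comparison. Only Id1 and Id2 changed by more than 2-fold, a rule that 12% of all genes met.

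Tcf3 was at 317, 336 and 354 CPM in wild-type and 323 and 341 CPM in Lmo2Tg libraries. The groups overlapped, with a log2 fold change of -0.02 (95% interval -0.18 to 0.15, edgeR adjusted p = 0.898). Tcf12 was at 630, 637 and 581 CPM in wild-type and 696 and 682 CPM in Lmo2Tg libraries. Both Lmo2Tg values lay above all wild-type values, and the difference of 0.16 (SE 0.07) had an edgeR adjusted p of 0.102. Tcf4, which encodes E2-2, an E protein best known for its role in plasmacytoid dendritic cells, was at 84.1, 80.8 and 77.4 CPM in wild-type and 67.2 and 55.9 CPM in Lmo2Tg libraries. All Lmo2Tg values were lower, and Tcf4 fell by 0.39 on the log2 scale (SE 0.09, edgeR adjusted p = 0.00612). Markers of plasmacytoid dendritic cells were also lower, and their part in the Tcf4 difference was not tested. Summed over 10 genes they were at 300 to 326 CPM in wild-type and 112 to 117 CPM in Lmo2Tg libraries. Of the 8 tested, 6 were called lower and none higher, where 36.6% of all genes were called. Ccr9, which thymocytes also express, made up most of the difference in the sum, at 150.4 ± 6.60 CPM in wild-type and 12.1 ± 2.18 CPM in Lmo2Tg libraries. Siglech, which defines these cells, was at 0 in both Lmo2Tg libraries and at most 0.127 CPM in wild-type.

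Id2 was at 13.1, 16.6 and 10.2 CPM in wild-type and 37.7 and 31.05 CPM in Lmo2Tg libraries. Both transgenic libraries lay above all wild-type libraries, a 2.59-fold rise (log2 1.37, SE 0.25, edgeR adjusted p = 0.00177). Id1 was at 0.613, 0.572 and 0.363 CPM in wild-type and 2.81 and 4.51 CPM in Lmo2Tg libraries. This was the largest fold change among the members, 7.04-fold (log2 2.81, SE 0.58, edgeR adjusted p = 0.00335), but at 38 and 66 counts in the Lmo2Tg libraries its level stayed low. Id3, the Id gene raised by pre-TCR signalling, moved the other way, from 25.1, 28.9 and 41.1 CPM in wild-type to 20.9 and 16.4 CPM in Lmo2Tg libraries. The groups did not overlap, and Id3 fell by 0.77 on the log2 scale (SE 0.21, edgeR adjusted p = 0.0175). Without Lmo2Tg library b, Id3 (adjusted p = 0.118) and Tcf4 (adjusted p = 0.0633) were no longer called, which left the 2 members Id1 and Id2. For 5 of the 6 members the groups did not overlap, as for 60.9% of all genes tested. Markers of NK and innate lymphoid cells, which use Id2, were summed over 10 genes at 238 to 259 CPM in wild-type and 145 to 187 CPM in Lmo2Tg libraries. Ncr1 was at 0 in both groups, and of 6 tested 1 was called higher and 1 lower. Gzma carried the difference in the sum, at 197.7 ± 10.3 CPM in wild-type and 111.1 ± 24.0 CPM in Lmo2Tg, while Nkg7 was at 47.3 ± 1.85 and 50.4 ± 4.45 CPM. Early progenitor markers were summed at 95.6 to 124 CPM in wild-type and 274 to 386 CPM in Lmo2Tg libraries, and their part in these changes was not tested. Of the 7 tested, 5 were called higher and 2 lower (Bcl11a and Mef2c), and Kit and Hhex made up most of the sum in Lmo2Tg libraries. Markers of gamma-delta T cells, in which Id3 acts, were summed over 5 genes at 266 to 305 CPM in wild-type and 381 to 425 CPM in Lmo2Tg libraries, and their part was likewise not tested. Of the 4 tested, Sox13 and Cd27 were called higher and Maf and Blk lower, with a median log2 fold change of -0.56.

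**Figure D1:**
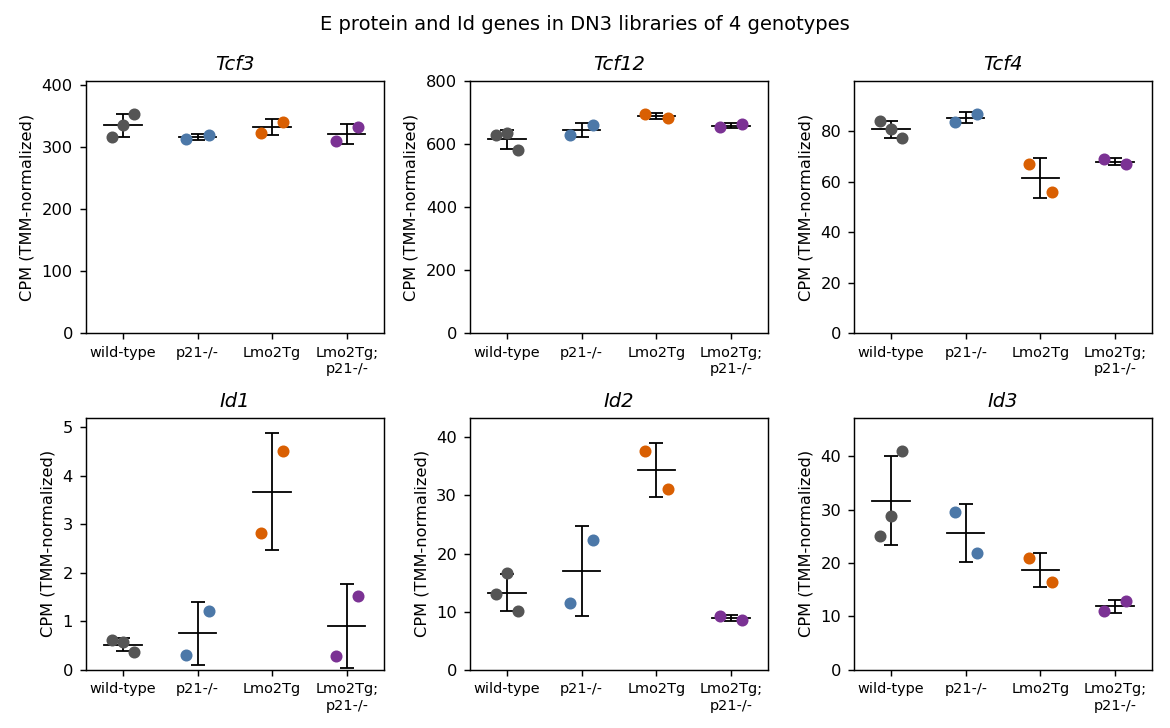
TMM-normalised CPM (vertical axes, from 0) of the 6 genes in the 4 genotypes, with 1 point per library and the mean ± SD as bars. Id2 in both Lmo2Tg libraries (31.05 and 37.7 CPM) lay above every other library, while both Lmo2Tg;p21-/- libraries had the lowest Id3 levels.

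Without the transgene, no difference between p21-/- and wild-type cells was detectable for any of the 6 genes. Only 13 of 11840 genes (0.11%) were called in p21-/- against wild-type DN3 cells by edgeR, and 391 had an unadjusted p under 0.05. DESeq2 and limma-voom called none of the members either. None of the 6 members reached an unadjusted p under 0.05, and all 6 had an adjusted p of 0.984. Id2 was at 11.5 and 22.4 CPM in the p21-/- libraries (log2 difference 0.35, 95% interval -0.22 to 0.92), and Id3 was at 29.5 and 21.8 CPM (log2 difference -0.30, 95% interval -0.76 to 0.15). The 2 p21-/- libraries differed from each other by more than the group means did for both genes. Tcf3 (314 and 321 CPM), Tcf12 (631 and 661 CPM) and Tcf4 (83.8 and 86.9 CPM) overlapped the wild-type range. Id1 was at 0.293 and 1.203 CPM, on 5 and 19 counts.

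Among Lmo2Tg cells, Id2 was lower without p21. Both Lmo2Tg;p21-/- libraries, at 9.28 and 8.57 CPM, lay below the 37.7 and 31.05 CPM of the Lmo2Tg libraries and below the lowest wild-type library. Id2 fell by 1.95 on the log2 scale (3.85-fold, SE 0.29, edgeR adjusted p = 0.00565), and it was the only member called of 6, where 6.94% of all genes were called. The call was lost without Lmo2Tg;p21-/- replicate 1, although the log2 difference was then -2.02 (adjusted p = 0.060). Id1 was at 0.285 and 1.51 CPM in Lmo2Tg;p21-/- libraries, on 4 and 25 counts, against 2.81 and 4.51 CPM in Lmo2Tg. Its log2 difference of -1.97 (SE 0.60) had an edgeR adjusted p of 0.077, and of 0.0191 with no filter on low counts. Id3 was at 11.1 and 12.8 CPM against 20.9 and 16.4 CPM, a log2 difference of -0.64 (SE 0.24, edgeR adjusted p = 0.135). The groups did not overlap for 4 of the 6 members, the 3 Id genes and Tcf12, as for 54.8% of all genes tested. The E protein genes moved little, with log2 differences of -0.05 for Tcf3, -0.06 for Tcf12 and 0.14 for Tcf4 and an edgeR adjusted p of 0.394 or more. Their 95% intervals reached no further than -0.24 to 0.36.

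Against p21-/- cells, Lmo2Tg;p21-/- cells had lower Id2, Id3 and Tcf4. Of the 6 members 3 were called, all lower, where 30.7% of all genes were called and 14.4% were called lower. Id3 fell from 29.5 and 21.8 CPM to 11.1 and 12.8 CPM (log2 -1.10, SE 0.24, edgeR adjusted p = 0.00559). It was the only member of the 3 called at an adjusted p under 0.01, and the only one to pass in every leave-one-out fit. Id2 fell from 11.5 and 22.4 CPM to 9.28 and 8.57 CPM (log2 -0.92, SE 0.30, edgeR adjusted p = 0.0378). This difference leaned on p21-/- replicate 2, without which it was -0.37 (adjusted p = 0.377), and limma-voom gave an adjusted p of 0.0758. Tcf4 fell from 83.8 and 86.9 CPM to 68.9 and 66.9 CPM (log2 -0.33, SE 0.10, edgeR adjusted p = 0.0241), and its adjusted p was 0.0611 to 0.115 when any 1 of the 4 libraries was left out. Plasmacytoid dendritic cell markers were again lower, at 107 to 129 CPM in Lmo2Tg;p21-/- and 288 to 360 CPM in p21-/- libraries. Ccr9 again made up most of the difference in the sum, at 18.2 ± 1.69 CPM in Lmo2Tg;p21-/- and 161.2 ± 39.9 CPM in p21-/- libraries. The part of these markers in the Tcf4 difference was not tested. Tcf3 was at 310 and 333 CPM and Tcf12 at 655 and 664 CPM, with log2 differences of 0.02 and 0.03 and 95% intervals of -0.16 to 0.20 and -0.15 to 0.21. Id1 had a log2 difference of 0.33 with an interval of -1.26 to 1.93.

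The Id2 response to the transgene differed with p21. The Id2 log2 fold change with the transgene was 1.37 in p21-sufficient and -0.92 in p21-/- cells, and the interaction of -2.30 (SE 0.39, 95% interval -3.16 to -1.43) passed the edgeR test (adjusted p = 0.030). Only 1.38% of all genes (163 of 11840) were called for the interaction, and Id2 was the only member among them. Leaving out 1 library moved the interaction between -2.70 and -1.74, and in 6 of the 9 such fits its adjusted p was 0.0579 to 0.140. These 6 left out wild-type replicate 1 or 3, p21-/- replicate 2, Lmo2Tg library a, or either Lmo2Tg;p21-/- library. For Id1 the interaction was -2.48 (SE 0.95, edgeR adjusted p = 0.202), and for Id3 it was -0.34 (95% interval -1.04 to 0.36), so Id3 was lower with the transgene on both backgrounds without a detectable difference between them. The 4 genotype comparisons share libraries and are not independent of each other.

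**Figure D2:**
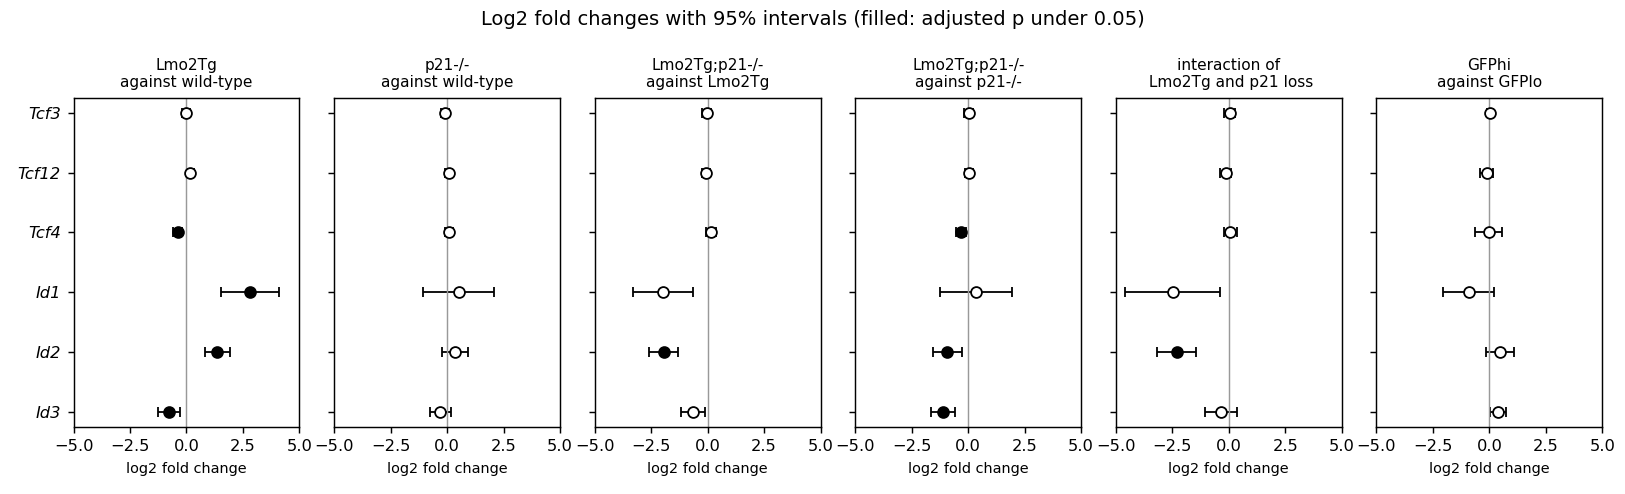
Log2 fold changes (horizontal axes) of the 6 genes in the 5 genotype contrasts and in GFPhi against GFPlo, with 95% intervals as bars and filled points for an edgeR adjusted p under 0.05. Id2 was filled on the right for Lmo2Tg against wild-type (1.37) and on the left for Lmo2Tg;p21-/- against Lmo2Tg (-1.95), Lmo2Tg;p21-/- against p21-/- (-0.92) and the interaction (-2.30), and unfilled on the right for p21-/- against wild-type (0.35), whereas Tcf3 and Tcf12 were unfilled and near 0 in every panel.

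Summed over the families, Id transcripts varied more between genotypes than E protein transcripts. The summed E protein level was 121 to 130 CPM per kilobase of exon in the 9 genotype libraries. The summed Id level was 19.9, 23.4 and 27.4 in wild-type, 21.5 and 22.4 in p21-/-, 29.6 and 25.8 in Lmo2Tg and 10.2 and 12.0 in Lmo2Tg;p21-/- libraries. The ratio of the E protein sum to the Id sum was therefore 6.13, 5.43 and 4.67 in wild-type, 5.66 and 5.58 in p21-/-, 4.30 and 5.06 in Lmo2Tg and 11.9 and 10.7 in Lmo2Tg;p21-/- libraries. Both doubly mutant libraries lay above the other 7, and the Lmo2Tg range overlapped wild-type. Of the single genes tested between Lmo2Tg;p21-/- and Lmo2Tg cells, 54.8% had groups that did not overlap. With median coding transcript lengths, the ratios were 10.5 to 14.3 in wild-type, 9.42 and 10.9 in Lmo2Tg and 26.9 and 24.6 in Lmo2Tg;p21-/- libraries, with the doubly mutant libraries again the highest. These ratios describe RNA and were given no test.

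The makeup of the Id sum also differed between genotypes. Id3 made up 68.8% to 83.7% of it in wild-type libraries but 39.5% and 35.5% in Lmo2Tg libraries. Id2 made up 52.3% and 49.4% in Lmo2Tg libraries against 15.2% to 29.1% in wild-type. In Lmo2Tg;p21-/- libraries Id3 was again the largest share, at 60.4% and 59.7%. Id1 stayed the smallest share in all 9 genotype libraries, at most 15.1%.

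**Figure D3:**
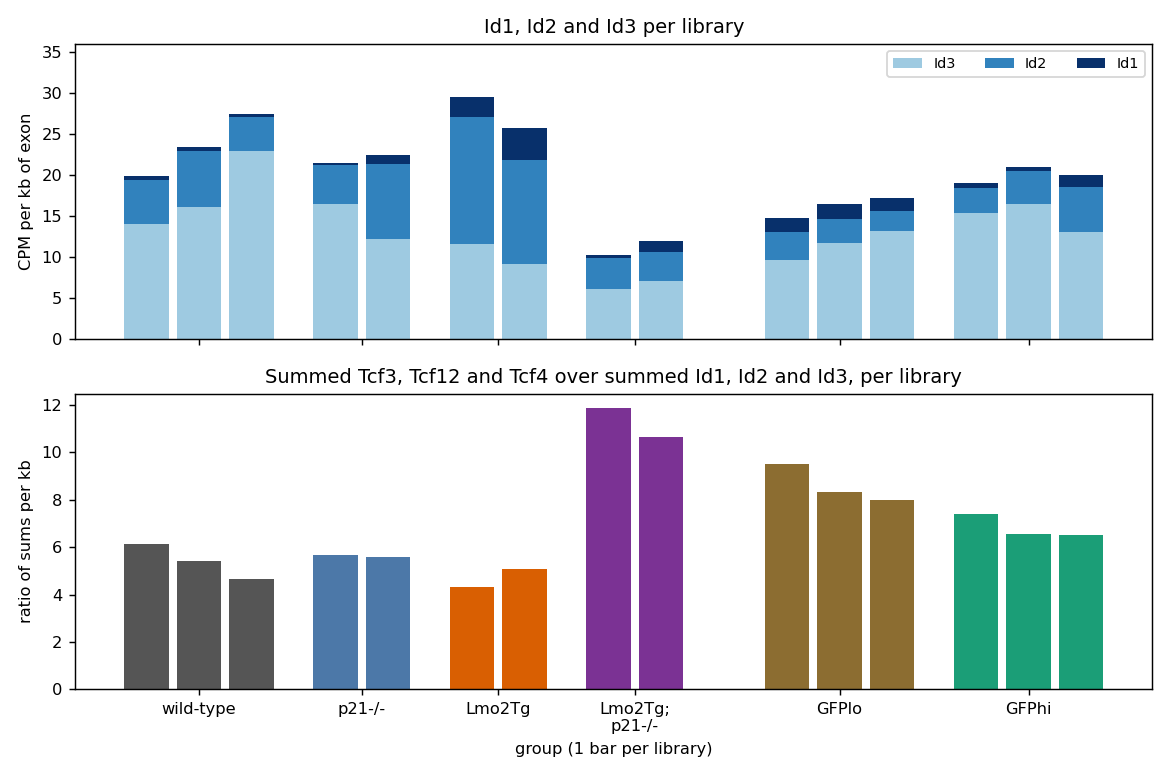
Upper panel, CPM per kilobase of exon of Id1, Id2 and Id3 stacked for each library. Lower panel, the ratio of summed Tcf3, Tcf12 and Tcf4 to summed Id genes for each library. The Lmo2Tg;p21-/- libraries, at 11.9 and 10.7, were the highest of the genotype libraries. The GFP and genotype libraries were normalised separately.

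Among Lmo2Tg cells sorted by division history, none of the 6 members was called between GFPhi and GFPlo with all 6 libraries (edgeR), where 14.9% of 11581 genes were called. DESeq2 and limma-voom called none either, and Id3 alone had an unadjusted p under 0.05 in edgeR. Its levels were 27.6, 29.6 and 23.5 CPM in GFPhi and 17.2, 20.99 and 23.7 CPM in GFPlo libraries, a log2 difference of 0.38 (SE 0.15, edgeR adjusted p = 0.14). GFPhi replicate 3 was the only GFPhi library within the GFPlo range. Without it, Id3 was higher in GFPhi by 0.47 (SE 0.13, edgeR adjusted p = 0.0277). B cell markers were higher in the same fit, with 7 of 11 tested called higher, where 41.3% of all genes were called. None of these markers was called lower, and their median log2 difference was 3.49. Their part in the Id3 difference was not tested.

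Id1 was at 0.808, 0.512 and 1.79 CPM in GFPhi and 1.85, 2.20 and 1.84 CPM in GFPlo libraries. All GFPhi values were lower, as for non-overlapping groups in 41.3% of genes, but GFPhi replicate 3 came close to GFPlo. The log2 difference was -0.92 (SE 0.46, edgeR adjusted p = 0.218) with all libraries and -1.57 (SE 0.29, edgeR adjusted p = 0.00621) without GFPhi replicate 3. Id1 lies on chromosome 2, where 77.6% of 923 tested genes had lower values in GFPhi, with a median log2 difference of -0.18. The 95% interval of Id1 was -2.05 to 0.20 with all libraries and -2.255 to -0.875 without GFPhi replicate 3. The part of the chromosome in the Id1 difference was not tested.

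Id2 was at 7.39, 9.76 and 13.2 CPM in GFPhi and 8.58, 7.09 and 5.93 CPM in GFPlo libraries. These overlapped, with a log2 difference of 0.49 (95% interval -0.13 to 1.11). Tcf4 was at 42.3, 50.0 and 81.5 CPM in GFPhi and 53.6, 57.7 and 65.3 CPM in GFPlo libraries, so that GFPhi replicate 3 was the highest of all 6 and the other GFPhi libraries were the lowest. Its log2 difference was -0.02 with all libraries and -0.34 (SE 0.11, edgeR adjusted p = 0.0421) without that library. Tcf3 was at 353, 344 and 357 CPM in GFPhi and 353, 349 and 332 CPM in GFPlo libraries, with a log2 difference of 0.03 and a 95% interval of -0.10 to 0.16. Tcf12 was at 816, 788 and 612 CPM in GFPhi and 792, 770 and 826 CPM in GFPlo libraries, with GFPhi replicate 3 the lowest. Without GFPhi replicate 3, 3 of the 6 members were called against 41.3% of all genes tested, a share close to the background.

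The ratio of E protein to Id sums was 7.40, 6.57 and 6.51 in GFPhi and 9.52, 8.35 and 7.99 in GFPlo libraries. The groups did not overlap, as for 41.3% of the single genes tested, and GFPhi replicate 3 lay with the other GFPhi libraries here. These ratios were given no test. With median coding transcript lengths the ratios were 14.5 to 18.1 in GFPhi and 20.5 to 22.9 in GFPlo libraries.

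**Figure D4:**
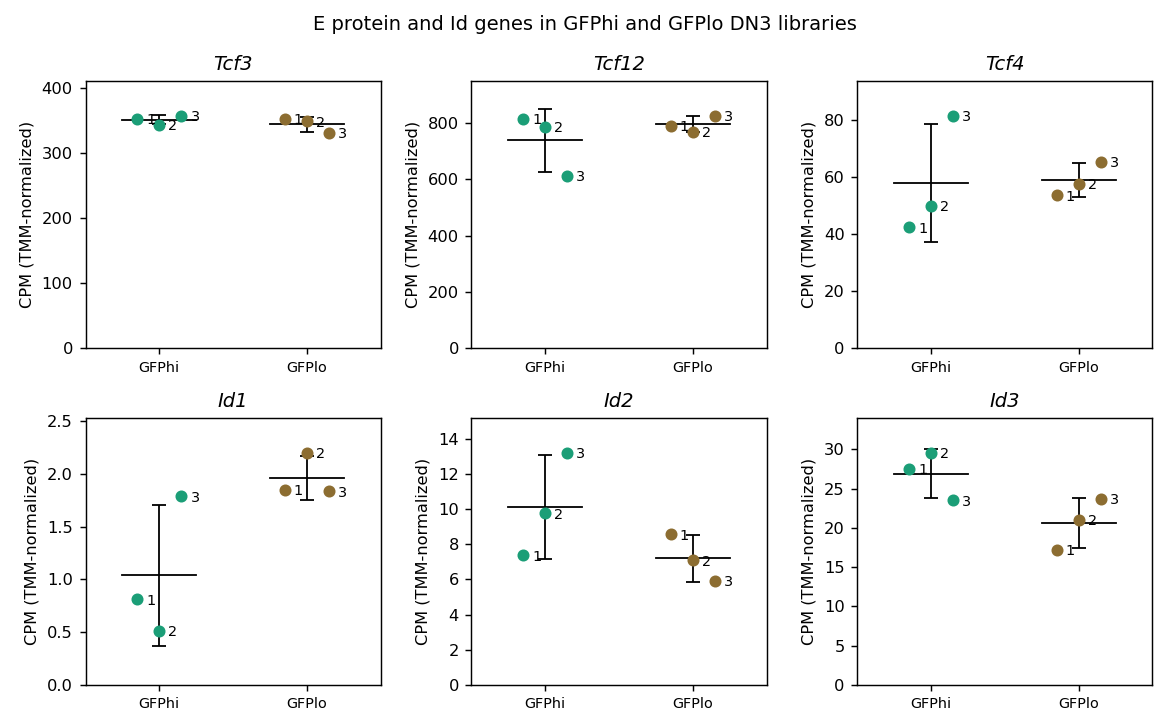
TMM-normalised CPM (vertical axes, from 0) of the 6 genes in GFPhi and GFPlo DN3 libraries, with replicate numbers beside the points and the mean ± SD as bars. GFPhi replicate 3 was the highest GFPhi library for Tcf4 (81.5 CPM), Id1 (1.79 CPM) and Id2 (13.2 CPM) and the lowest for Tcf12 (612 CPM) and Id3 (23.5 CPM).

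Several genes that E proteins are known to activate in early thymocytes were lower in both transgenic genotypes. Of 9 such genes, 4 were called lower and 1 higher in Lmo2Tg against wild-type, with a median log2 fold change of -0.40 against -0.01 over all genes, of which 36.6% were called. The 4 lower genes (Ptcra, Rag1, Rag2 and Cd3e) are also DN3 markers, a list of which 6 of 8 were called lower and 1 higher, with a median of -0.94. Rag2, of the recombinase that cuts Tcrb, was at 72.3 ± 11.6 CPM (SD, n = 3) in wild-type and 14.4 ± 0.00868 CPM (n = 2) in Lmo2Tg libraries (log2 -2.33, SE 0.20). Ptcra, the invariant chain of the pre-TCR, went from 152.5 ± 29.3 to 40.8 ± 20.95 CPM (log2 -1.90, SE 0.29), and Rag1 fell by 1.10 (SE 0.10). Hes1, also a Notch target, was the gene that rose (log2 1.21, SE 0.31), and its 2 Lmo2Tg libraries were far apart at 107 and 291 CPM.

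In Lmo2Tg;p21-/- against p21-/- cells, 4 of the 9 were called lower and 1 higher, where 30.7% of all genes were called and 14.4% were called lower. These 4 were again DN3 markers, of which 6 of 8 were called lower. Ptcra fell by 2.31 (SE 0.31), Rag2 by 1.46 (SE 0.19) and Rag1 by 1.11 (SE 0.11), while Gfi1, a repressor, rose by 0.38 (SE 0.09). Between Lmo2Tg;p21-/- and Lmo2Tg cells, 1 of the 9 was called higher and 1 lower, where 6.94% of all genes were called. Rag2 rose by 1.11 (SE 0.21, edgeR adjusted p = 0.015) to 30.9 ± 7.82 CPM, which was still below wild-type, and Hes1 fell by 1.55 (SE 0.35, edgeR adjusted p = 0.026). Ptcra and Rag1 were not called, at log2 differences of -0.49 and 0.24. None of the 9 was called for p21-/- against wild-type or for the interaction. Between GFPhi and GFPlo cells none of the 9 was called by edgeR with all libraries. Without GFPhi replicate 3, Ptcra was called higher in GFPhi (log2 0.34, SE 0.11).

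**Figure D5:**
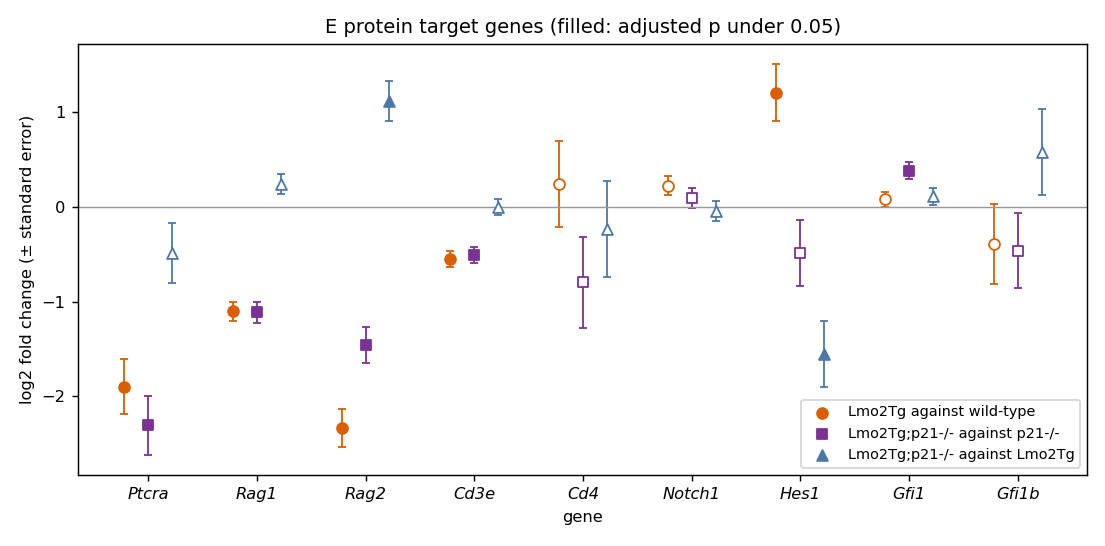
Log2 fold changes (vertical axis, ± standard error) of 9 E protein target genes in 3 contrasts, with filled symbols for an edgeR adjusted p under 0.05. Ptcra, Rag1, Rag2 and Cd3e were filled below 0 in both contrasts that add the Lmo2 transgene, and Rag2 (1.11) was filled above 0 for Lmo2Tg;p21-/- against Lmo2Tg.

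Of the partners that E proteins share with LMO2, Lyl1 differed most. Lyl1, a class II helix-loop-helix factor that pairs with E proteins, rose from 3.75 ± 0.188 CPM in wild-type to 51.4 ± 21.5 CPM in Lmo2Tg libraries (log2 3.77, SE 0.24) and was 4.67 (SE 0.29) higher on the log2 scale in Lmo2Tg;p21-/- than in p21-/- cells. Tal1, the other partner tested of 17 listed, was at 1.36 ± 0.223 CPM in wild-type and 1.29 ± 0.373 CPM in Lmo2Tg and was not called. In the LMO2 complex list, 2 of 10 tested genes were called higher and 3 lower in Lmo2Tg against wild-type, against 36.6% of all genes called in either direction, with Lmo2 itself among the higher (log2 8.38, SE 0.50), while Ssbp4 fell by 0.65 (SE 0.10). Of 6 tested cofactors, 3 were called higher and none lower, against the same background of 36.6%. They were Crebbp (log2 0.88, SE 0.13) and Ep300 (0.61, SE 0.12), acetyltransferases that E proteins recruit, and the corepressor Cbfa2t3 (0.45, SE 0.09). Of 8 tested genes for the turnover of E and Id proteins, 2 were called lower, Skp2 (log2 -0.90, SE 0.16) and Mapk3 (-0.31, SE 0.11), a smaller share than the 36.6% of all genes.

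Genes of pathways linked to Id transcription were mixed. Of 10 genes from the pre-TCR to Id3, 2 were called higher and 3 lower in Lmo2Tg against wild-type, where 36.6% of all genes were called. Egr1, an immediate early factor that activates Id3, rose from 39.2 ± 20.9 to 173 ± 26.8 CPM (log2 2.14, SE 0.36) in the comparison in which Id3 fell. In Lmo2Tg;p21-/- cells Egr1 was at 25.1 ± 5.37 CPM, lower than in Lmo2Tg by 2.78 on the log2 scale (SE 0.43, edgeR adjusted p = 0.0063), and Egr2 fell by 2.05 (SE 0.46, edgeR adjusted p = 0.026). Between GFPhi and GFPlo, 2 of the 9 tested were called higher and 1 lower, where 14.9% of all genes were called. Egr1 was at 64.1 ± 23.5 CPM in GFPhi and 17.2 ± 3.79 CPM in GFPlo (log2 1.90, SE 0.32). Without GFPhi replicate 3, 7 of the 9 were called higher and 1 lower, where 41.3% of all genes were called.

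Of 11 tested genes of BMP and TGF-beta signalling, 4 were called higher and 5 lower in Lmo2Tg against wild-type, where 36.6% of all genes were called. BMP signalling is the arm best known to raise Id1 and Id2, and the list pools both arms. The BMP receptor gene Bmpr1a rose from 0.248 ± 0.111 to 8.37 ± 2.00 CPM (log2 5.04, SE 0.37), and the inhibitory Smad7 from 19.9 ± 1.68 to 98.5 ± 20.5 CPM (log2 2.31, SE 0.13). Bmpr2 fell by 0.75 (SE 0.14) and the signal transducer Smad1 by 0.60 (SE 0.12). In Lmo2Tg;p21-/- against Lmo2Tg cells, 2 of the 11 were called higher and 1 lower, where 6.94% of all genes were called. Smad7 fell by 1.02 (SE 0.14), while Bmpr2 rose by 0.88 (SE 0.15) and Smad5 by 0.73 (SE 0.11). For the interaction, Smad7 was called at -0.90 (SE 0.19, edgeR adjusted p = 0.049) and Smad5 at 0.74 (SE 0.14, edgeR adjusted p = 0.036). Bmpr1a was at 14.1 ± 4.07 CPM in Lmo2Tg;p21-/- libraries, against 8.37 ± 2.00 CPM in Lmo2Tg, and was not called between them. None of these lists had a gene called for p21-/- against wild-type.

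Genes whose log2 CPM was among the closest to each member over the 9 genotype libraries, among 11011 genes, are given as a description of likeness only. The libraries share their groups and depth, so these correlations carry no test. For Id2 they were Hspa5, an endoplasmic reticulum chaperone (Pearson r = 0.994), Btg3 (0.987) and Siah2 (0.985). For Id3 they were Alad (0.988), which encodes an enzyme of haem synthesis, and Bsg (0.979). For Id1 they were Tuba1c (0.979), Tiprl (0.969) and Rpl24 (0.964). Those of Tcf4 were Asxl1 (0.976), Dock9 (0.973) and Tmem154 (0.968), those of Tcf12 were Setd2 (0.985) and Kif5b (0.981), and those of Tcf3 were Sergef (0.961), Psmd13 (0.951) and Dcaf13 (0.931). No member appeared among the closest genes of another member.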

How the data were processed

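The authors deposited 2 tables of whole-number counts per protein-coding gene, 1 for the GFP and 1 for the genotype libraries. The submitters' processing notes name STAR 2.4.2a, featureCounts, limma and mm10 without roles, and the strand setting is not given in the sources used here. Of 16 labelled samples, 15 libraries were used. The Lmo2Tg columns name only their group and are called library a and b. No column was assigned to p21-/- replicate 3, which is not analysed here, and 1 column that matched no labelled sample was not used. Cells were sorted from pooled mice, 3 to 5 a pool in the study's array protocol, the only place where a number is given.

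From the deposited counts, genes with low counts were filtered (filterByExpr, minimum count 10, minimum total 15), libraries were scaled by TMM, and each table was fitted alone with edgeR 4.0.16 (quasi-likelihood test, group as the only term, R 4.3.3). P-values were adjusted by Benjamini-Hochberg over all genes tested and called under 0.05 at any fold. Standard errors and 95% intervals came from the fitted fold change and its F statistic. Levels per kilobase used exon unions from GENCODE M21, matched by gene ID for 98.2% of genes. Alternatives were RLE scaling, DESeq2 1.42.0, limma-voom 3.58.1, no filter, a minimum of 1 CPM in 2 libraries, only the groups compared, a replicate block, a stricter threshold and leaving out each library. On simulated counts with 100 genes changed by a log2 of 1 and 100 by 2, edgeR recovered 77 and 94 for Lmo2Tg against wild-type and 62 and 82 for the interaction, of 11840 genes.

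Members and gene lists were chosen with earlier results of these data known. Named genes were the 6 members, Cdkn1a and Lmo2 as checks, at most 3 called genes a direction from each list with a mean of at least 1 CPM, and up to 3 genes closest to each member. A few genes are not reported here and were left out of the gene lists and their counts. Genes named without a call were added after their values were seen. Depth limits precision for Id1 most. Floors of 3 counts cover counting error only.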

Additional observations from a re-analysis of the deposited data

Results flagged for a closer look

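For Id2, the effect of the Lmo2 transgene differed between p21-sufficient and p21-/- DN3 cells. The interaction was -2.30 on the log2 scale (edgeR adjusted p = 0.030), from 2.59-fold higher in Lmo2Tg than wild-type cells to 1.90-fold lower in Lmo2Tg;p21-/- than p21-/- cells. Both Lmo2Tg libraries were above all 3 wild-type libraries, where the groups did not overlap for 60.9% of all genes. The log2 difference of Lmo2Tg;p21-/- from p21-/- cells was only -0.368 without p21-/- replicate 2. Over 14 alternative settings the interaction ranged from -2.70 to -1.74, and 6 of them lost the call. Egr1 group means were 39.2, 33.0, 173 and 25.1 CPM in wild-type, p21-/-, Lmo2Tg and Lmo2Tg;p21-/- libraries. No gene from the pre-TCR to Id3, Egr1 included, was called for the interaction. Of the BMP and TGF-beta genes, Smad7 was called lower and Smad5 higher for it. The part of these genes in the Id2 difference was not tested.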

How the results depend on the processing

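Of 420 values under alternative settings, 382 kept their direction and side of the threshold, 18 lost the call, 4 gained it and 16 changed sign. All 16 sign changes were of members not called and arose on leaving out 1 library. In GFPhi against GFPlo the log2 differences then ranged from -0.178 to 0.0168 for Tcf12 and from -0.344 to 0.167 for Tcf4. The ranges for Lmo2Tg against wild-type were -0.0576 to 0.0254 for Tcf3 (0.0251 without wild-type replicate 3 and -0.0551 without replicate 1), and for p21-/- against wild-type -0.797 to 1.204 for Id1 and -0.207 to 0.751 for Id2. For Lmo2Tg;p21-/- against p21-/- they were -0.0405 to 0.0580 for Tcf3, -0.00273 to 0.0617 for Tcf12 and -1.35 to 1.64 for Id1. For the interaction they were -0.0268 to 0.0768 for Tcf3 (0.0748 without wild-type replicate 1 and -0.00568 without Lmo2Tg library a) and -0.0629 to 0.197 for Tcf4. Leaving out 1 library moved the number of members called from 0 to between 0 and 3 for GFPhi against GFPlo (3 without GFPhi replicate 3), from 4 to between 2 and 4 for Lmo2Tg against wild-type (2 without Lmo2Tg library b), from 1 to between 0 and 1 for Lmo2Tg;p21-/- against Lmo2Tg, from 3 to between 1 and 3 for Lmo2Tg;p21-/- against p21-/-, and from 1 to between 0 and 1 for the interaction. An adjusted p under 0.01 left 1 member for Lmo2Tg;p21-/- against p21-/- and 0 for the interaction. With no filter, 2 members were called for Lmo2Tg;p21-/- against Lmo2Tg. The cause was not tested.

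The replicate block left 0, 0 and 3 members called for GFPhi against GFPlo, p21-/- against wild-type and Lmo2Tg;p21-/- against p21-/-. The labels do not say that a number marks a shared cohort, and same-numbered libraries did not deviate together throughout (correlations of 0.07, -0.08 and 0.10 for the GFP pairs and of -0.24 and 0.30 for wild-type with p21-/-). No block was fitted with Lmo2Tg, whose columns carry no usable number. Over all genes, calls for GFPhi against GFPlo numbered 1721, against 496 with the block, 2912 with DESeq2 and 4848 without GFPhi replicate 3, and for the interaction 163, against 458 with DESeq2 and 520 with no filter. The E protein to Id ratio with median coding transcript lengths, chosen after seeing the data, was 10.2 to 25.8 over the genotype group means.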

Other observations

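B cell markers were the list furthest from the background between GFPhi and GFPlo cells. Of 10 tested, 5 were called higher in GFPhi and none lower, where 14.9% of all genes were called. The median log2 difference of these markers was 2.52 against 0.02 over all genes. Their sum was 65.1 to 144 CPM in GFPhi and 44.5 to 49.2 CPM in GFPlo libraries. Cd74, which the study lists under antigen presentation, made up most of the difference, at means of 29.1 and 0.378 CPM. Blk (24.5 and 19.1 CPM) and Cd79b (23.0 and 22.5 CPM) were at similar means in both groups. Ms4a1 was at 3.90 and 0.0107 CPM. Early progenitor markers were summed at 285 to 442 CPM in GFPhi and 522 to 598 CPM in GFPlo libraries. Kit made up most of the difference in the sum, at a mean of 178 CPM in GFPhi and 357 CPM in GFPlo. Mean Hhex was also lower in GFPhi (49.3 against 74.6 CPM), while mean Lyl1 was higher (157 against 135 CPM). Of the 7 early progenitor markers tested, 1 was called lower in GFPhi and none higher, where 14.9% of all genes were called. Markers that DN3 cells lack (Cd4, Cd8a, Cd8b1, Cd44) were summed at 32.7 to 34.6 CPM in wild-type, 29.8 to 47.0 CPM in p21-/-, 73.0 to 81.2 CPM in Lmo2Tg and 51.9 to 66.2 CPM in Lmo2Tg;p21-/- libraries. In Lmo2Tg against wild-type, 3 of these 4 markers were called higher and none lower, where 36.6% of all genes were called. The part of these markers in the E protein and Id differences was not tested. In the GFP table, normalised separately, they were at 48.6 to 157.7 CPM in GFPhi and 113.1 to 123.8 CPM in GFPlo libraries, which overlapped. Myeloid markers were summed at 15.6 to 19.97 CPM in wild-type, 22.4 to 24.1 CPM in p21-/-, 19.3 to 19.9 CPM in Lmo2Tg and 24.5 to 32.7 CPM in Lmo2Tg;p21-/- libraries. Of the 5 tested in Lmo2Tg against wild-type, 2 were called higher and 1 lower, where 36.6% of all genes were called. Mean Lyz2 was lower in Lmo2Tg (5.96 against 15.8 CPM), while Mpo (7.80 against 0.209 CPM) and Itgam (5.16 against 1.59 CPM) were higher.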
